A study of Homo sapiens with 18 samples.

Results

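The HOX genes were followed over 18 CAGE-seq libraries of bladder cancer cells. A gene of the deposited table counted as a member when its Ensembl identifier mapped to a symbol beginning with HOXA, HOXB, HOXC or HOXD, and the antisense RNAs that carry such a symbol were included. This gave 42 of the 16575 genes in the table, of which 33 were coding genes and 9 antisense RNAs. The HOXA cluster on chromosome 7 held 14 of them, HOXB on chromosome 17 held 9, HOXC on chromosome 12 held 10 and HOXD on chromosome 2 held 9. A further 10 HOX symbols (HOXA2, HOXB1, HOXB5, HOXB-AS2, HOXB-AS3, HOXB-AS4, HOXC5, HOXC8, HOXC-AS2 and HOXD12) were not analysed here.

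HOX genes encode homeodomain transcription factors that give cells their position along the body axis, and in each cluster they lie in the order in which they act from head to tail. Genes of the same paralog group, numbered from 1 at the anterior end to 13 at the posterior end, descend from a common ancestor gene and resemble each other across the clusters. Polycomb complexes keep clusters silent, trithorax-type methyltransferases keep them active, and retinoic acid switches on the anterior genes in the embryo. Adult epithelia keep part of the pattern, and the hindgut and urogenital tract are known for posterior members such as HOXA13 and HOXD13.

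RT-112, HT-1376 and CAL-29 are established human bladder cancer lines, and each gave 6 variants with 1 library per line and variant. Cells were first transduced with a lentivirus for WWOX, a tumour suppressor, or with its blank vector (GFP and puromycin selection, CMV promoter), and then with a lentivirus for the transcription factor AP-2α (gene TFAP2A) or AP-2γ (gene TFAP2C), or with its blank (G418 selection, CMV promoter). The variants were KK (both blanks), KA (blank and AP-2α), KC (blank and AP-2γ), WK (WWOX and blank), WA (WWOX and AP-2α) and WC (WWOX and AP-2γ). Every library, KK included, therefore came from cells that carried 2 vectors, and transductants had been selected with antibiotics. RT-112 was grown in RPMI-1640 and the other lines in DMEM, so that a difference between RT-112 and the others cannot be told apart from the medium. The 6 libraries of a line are derivatives of that line, so p-values between lines measure the spread between derivatives and not between patients.

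CAGE-seq reads the capped 5′ end of RNA, and the values are CPM, the reads of a gene scaled to a fixed library total. Between 13357102 and 17958572 reads lay on genes in a library, 1 read was worth 0.0526 to 0.0709 CPM, and 3 reads, the limit that a count of 0 allows, were worth 0.158 to 0.213 CPM (counting error only). Of the markers of epithelial and urothelial cells, 10 of 13 for HT-1376 and 12 of 13 for each of the other lines had at least 1 CPM in every library, while the 4 endothelial markers and 4 of the 5 leukocyte markers were not analysed here. The other leukocyte marker, CD68, had at least 1 CPM in every library. Of 4 fibroblast markers with values, 2 reached this in RT-112 (COL1A1 and LUM), 2 in HT-1376 (COL1A1 and COL1A2) and 1 in CAL-29 (COL1A1). The library labelled CAL-29 KC correlated with the libraries of HT-1376 at a median Pearson r of 0.940 over all genes. With the other CAL-29 libraries the median was 0.741. It is shown apart, except in the comparisons of variants with KK and where its inclusion is stated. The transduced genes did not follow every label. TFAP2C was at 179.87 CPM in the library labelled RT-112 WA, above 142.75 CPM in RT-112 WC and 56.2 CPM in RT-112 WK, and TFAP2A was at 25.32 CPM there against 46.77 CPM in RT-112 KA. WWOX was at 18.45 to 22.33 CPM in the 3 RT-112 libraries labelled with it and at 23.52 to 26.04 CPM in the 3 without, and in HT-1376 the ranges 18.58 to 23.06 and 16.95 to 24.74 CPM overlapped. In CAL-29 the libraries labelled with WWOX held 62.36 to 154.92 CPM of it and KK and KA held 63.68 and 51.31 CPM. Whether capped ends of the vectors were assigned to these genes is not given in the sources used here.

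The summed CPM of each HOX cluster was lower in every HT-1376 library than in any RT-112 library or any of the 5 CAL-29 libraries compared. A gene was called on in a line when it had at least 1 CPM in every library of the line, off when it was below 1 CPM in every library, and mixed otherwise. In CAL-29, over 5 libraries, 29 of the 42 members were on and 4 were off, in RT-112 21 were on and 16 off, and in HT-1376 1 was on and 34 off. Over all 16575 genes 74.9% were on and 14.2% off in CAL-29, 68.7% on and 21.5% off in RT-112, and 70.9% on and 15.6% off in HT-1376, so that in HT-1376 most HOX members were off while most other genes were on. No more than 3 reads were found in any HT-1376 library for 18 of the 42 members.

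4 promoters stand for the main patterns of state, and each is given as the 250 bases before the start that RefSeq lists for the gene on GRCh38.p14, on the strand of the gene. HOXA9 (chr7:27165538-27165787, minus strand) was on in CAL-29 and off in the other lines, HOXD4 (chr2:176151300-176151549, plus strand) was off in HT-1376 alone, HOXD11 (chr2:176107030-176107279, plus strand) was the only member on in all 3 lines, and HOXA13 (chr7:27200092-27200341, minus strand) was called in the WWOX comparison of CAL-29. None of these stretches overlapped an exon of the gene annotation. Capitals mark GCCNNNGGC, the palindromic core bound by AP-2 factors, in HOXA13, HOXD11 and HOXD4, and TATAAA in HOXA9.
HOXA9: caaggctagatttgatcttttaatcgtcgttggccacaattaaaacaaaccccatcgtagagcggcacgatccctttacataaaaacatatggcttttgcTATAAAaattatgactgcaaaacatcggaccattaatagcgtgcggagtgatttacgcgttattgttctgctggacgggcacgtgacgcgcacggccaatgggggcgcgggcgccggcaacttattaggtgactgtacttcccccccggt
HOXA13: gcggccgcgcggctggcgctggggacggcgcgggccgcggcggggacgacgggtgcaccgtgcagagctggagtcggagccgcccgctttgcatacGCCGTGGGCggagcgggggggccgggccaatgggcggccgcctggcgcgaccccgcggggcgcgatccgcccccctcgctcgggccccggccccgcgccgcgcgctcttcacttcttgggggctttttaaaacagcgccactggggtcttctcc
HOXD4: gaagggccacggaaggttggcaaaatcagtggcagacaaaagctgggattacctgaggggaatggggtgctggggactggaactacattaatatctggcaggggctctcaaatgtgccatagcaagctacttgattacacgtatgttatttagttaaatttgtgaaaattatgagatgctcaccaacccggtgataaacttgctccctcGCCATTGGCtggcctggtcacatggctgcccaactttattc
HOXD11: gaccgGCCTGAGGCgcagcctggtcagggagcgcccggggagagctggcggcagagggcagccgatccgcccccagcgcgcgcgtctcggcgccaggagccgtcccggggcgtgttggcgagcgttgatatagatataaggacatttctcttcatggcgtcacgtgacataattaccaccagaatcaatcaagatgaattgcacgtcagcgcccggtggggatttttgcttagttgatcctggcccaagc

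RefSeq entries were found for 21 of the 42 members, with 28 start sites, in windows from 250 bases before to 50 after the start. GCCNNNGGC, searched on both strands (it is its own reverse complement), lay in 10 of the 28 windows (35.7%) and in 23.2% of the 35116 windows of all genes. TATAAA, on either strand, lay in 5 of the 28 windows (17.9%) and in 11.5% of all windows. Several windows belong to the same gene, and a match describes letters and not a bound site.

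**Figure D1:**
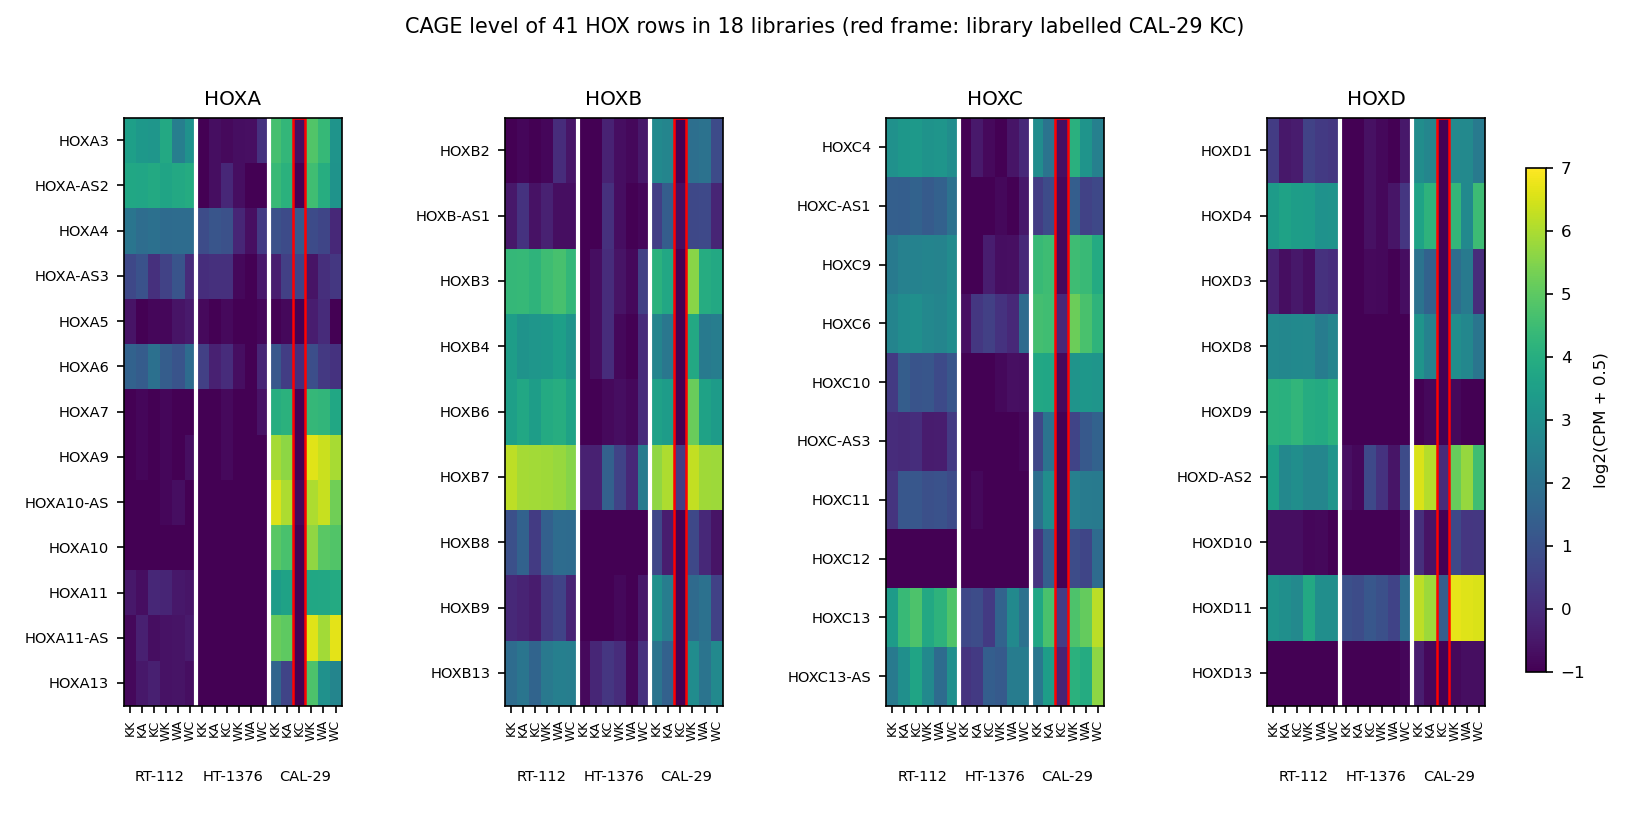
Level of 41 HOX members (vertical axis, in chromosomal order by cluster) in each of the 18 libraries (horizontal axis, by line and variant), as log2(CPM + 0.5) on the colour scale. A panel stands for a cluster and a red frame for the library labelled CAL-29 KC; the 6 HT-1376 columns and the framed one are near the bottom of the scale, and the block from HOXA7 to HOXA13 is filled in the other 5 CAL-29 libraries.

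Summed over all members, the HOX genes gave 622.63 to 933.83 CPM in CAL-29 (median 705.03), 237.7 to 254.19 CPM in RT-112 (median 247.1) and 7.51 to 28.51 CPM in HT-1376 (median 12.4). The 3 ranges did not overlap. CAGE reads 1 end per molecule and the CPM were not divided by gene length, so a sum adds up capped ends and not bases. The cluster that led the sum differed between the lines. In RT-112 HOXB gave a median of 44.6% of the HOX signal and HOXA 15.3%, whereas in CAL-29 HOXA gave 44.2% and HOXB 15.0%. Only the HOXB sums of these lines overlapped, at 93.73 to 118.79 CPM in RT-112 and 94.8 to 187.29 CPM in CAL-29. The HOXA sum ran from 35.09 to 39.9 CPM in RT-112 (median 37.8) and from 246.77 to 434.43 CPM in CAL-29 (median 308), the HOXC sum from 36.18 to 67.33 CPM and from 87.73 to 179.1 CPM, and the HOXD sum from 41.58 to 54.36 CPM and from 146.88 to 197.31 CPM. In HT-1376 each cluster was lower than in every library of the other lines, with 0.39 to 3.97 CPM for HOXA, 0.4 to 7.55 for HOXB, 1.97 to 12.32 for HOXC and 1.37 to 5.75 for HOXD.

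**Figure D2:**
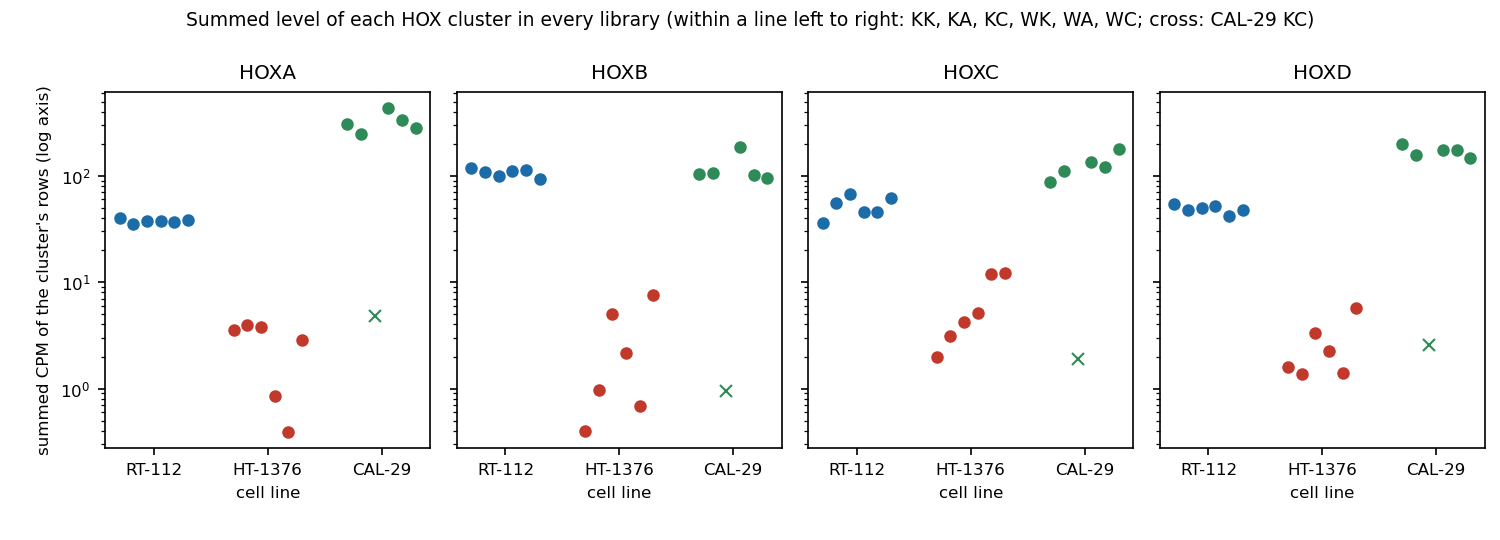
Summed CPM of the HOXA, HOXB, HOXC and HOXD members (4 panels, log scale) in each library by line, with 1 point per library and the library labelled CAL-29 KC drawn with its own mark. The HT-1376 points and the CAL-29 KC cross lie below all other points in every panel, and RT-112 and CAL-29 overlap in the HOXB panel alone.

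The number of members on differed between RT-112 and CAL-29 most in paralog groups 9 to 13, with no test. Of the 15 coding members in paralog groups 9 to 13, 10 were on in CAL-29, 5 in RT-112 and 1 in HT-1376. Of the 10 in groups 1 to 4, 8 were on in CAL-29, 7 in RT-112 and 0 in HT-1376, and of the 8 in groups 5 to 8 the counts were 5, 5 and 0. Members of other groups also differed in state between these lines (HOXA4, HOXA6, HOXA7, HOXB2, HOXD1 and HOXD3), and HOXD9 of the posterior groups was on in RT-112 and off in CAL-29. Groups 9 to 13 gave a median of 39.5% of the HOX signal in CAL-29 and 23.2% in RT-112, and the antisense RNAs gave 31.8% and 12.9%. 10 members were on in CAL-29 and off in both other lines (HOXA7, HOXA9, HOXA10-AS, HOXA10, HOXA11, HOXA11-AS, HOXA13, HOXB2, HOXC-AS3 and HOXD1), a pattern met by 1.08% of all genes. Another 10 were on in RT-112 and CAL-29 and off in HT-1376 (HOXA3, HOXA-AS2, HOXB3, HOXB4, HOXB6, HOXB13, HOXC4, HOXC9, HOXD4 and HOXD8), a pattern met by 0.953% of all genes. HOXB7, HOXC6, HOXC13, HOXC13-AS and HOXD-AS2 were on in those lines and mixed in HT-1376. Other patterns were those of HOXD11 (on in all 3 lines), HOXD9 (on in RT-112 and off in the others), HOXA4 (on in RT-112, mixed in the others), HOXA6 and HOXC-AS1 (on in RT-112, mixed in CAL-29), HOXC10 and HOXC11 (on in CAL-29, mixed in RT-112), HOXB8 and HOXB9 (mixed in both), HOXA-AS3 (mixed in RT-112 and off in CAL-29), HOXB-AS1, HOXC12, HOXD3 and HOXD10 (mixed in CAL-29 and off in RT-112), and HOXA5 and HOXD13 (off in every line). Of these, all but HOXA4 and HOXD11 were off in HT-1376.

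**Figure D3:**
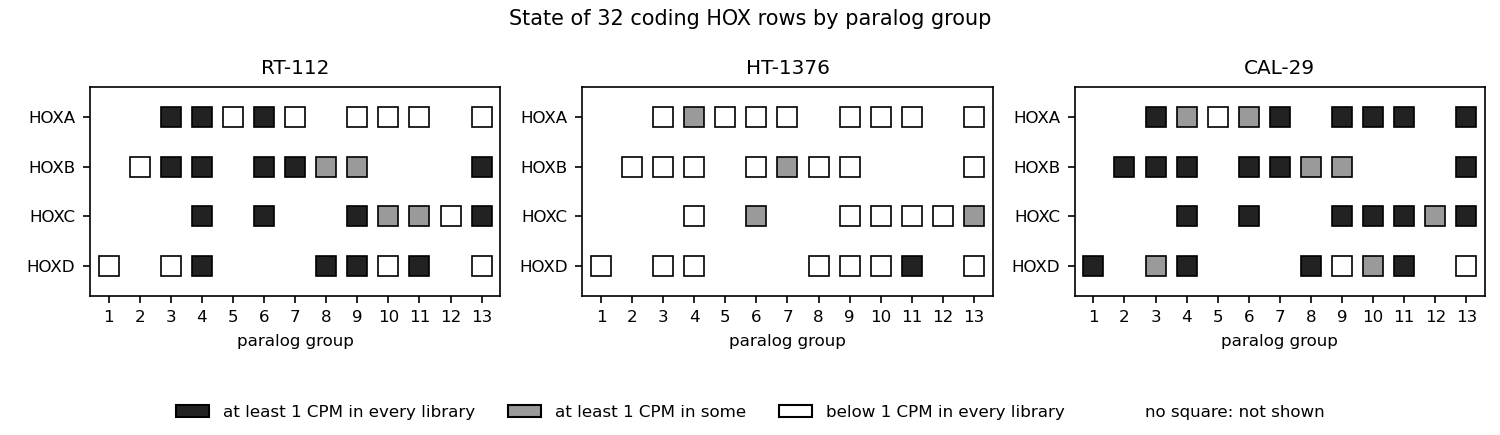
State of 32 coding members by paralog group (horizontal axis) and cluster (vertical axis) in the 3 lines (panels), where a black square stands for at least 1 CPM in every library, grey for some libraries and white for none. CAL-29 was on in 10 of the 15 squares of groups 9 to 13, RT-112 in 5 and HT-1376 in 1.

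Levels of single members showed the same separation. For these, the values of RT-112 and HT-1376 are given as the lowest, the median and the highest of 6 libraries and those of CAL-29 in the order KK, KA, WK, WA and WC, and log2 fold-changes come from limma on log2(CPM + 0.5) over 17 libraries with the variant as a term (± SE, Benjamini-Hochberg adjusted p over 13022 genes). In all, 30 of the 42 members reached the 5 CPM in 1 library that the filter asked for. Most of them reached it only through the lines where they were high, so the counts of calls below describe these members and do not support a difference of the family.

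HOXA9, a posterior factor best known from leukaemia, had 60.43, 48.88, 99.01, 80.83 and 61.63 CPM in CAL-29, 0, 0.025 and 0.12 CPM in RT-112 and 0, 0 and 0.07 CPM in HT-1376. The 5 CAL-29 libraries stood far above all others, by 7.07 ± 0.22 on the log2 scale against HT-1376 (adjusted p = 2.07e-11). HOXA10, which patterns the uterus and the lumbar spine, had 30.66, 25.82, 50.77, 30.49 and 27.83 CPM in CAL-29 and 0 CPM in every library of RT-112 and HT-1376, so that its mean was at least 183-fold higher than 3 reads per library allow in RT-112 and at least 156-fold higher than in HT-1376. Its antisense RNA HOXA10-AS had 95.75, 63.98, 64.64, 80.29 and 37.56 CPM in CAL-29, was 0 in HT-1376 and reached at most 0.11 CPM in RT-112. HOXA10-AS was thus at least 322-fold higher in CAL-29 than 3 reads allow in HT-1376. Antisense RNA HOXA11-AS had 35.93, 31.74, 98.18, 59.45 and 101.04 CPM in CAL-29, 0.06, 0.165 and 0.32 CPM in RT-112 and 0 CPM in HT-1376. HOXA11 itself, a kidney and forelimb gene, had 10.15 to 14.23 CPM in CAL-29 and at most 0.43 CPM elsewhere. These genes of the posterior HOXA cluster were silent or nearly so in both other lines. Strand use in the counting is not given in the sources used here and 33 members overlap a gene of the other strand, so that reads of HOXA10 and HOXA10-AS, or of HOXA11 and HOXA11-AS, may not be fully separated.

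The microRNA gene MIR196B lies inside the same cluster, and its product targets HOX mRNAs. It had 5.44, 6.19, 6.02, 6.27 and 5 CPM in CAL-29 and at most 0.06 CPM in RT-112 and HT-1376. MIR196B overlaps HOXA9 on the same strand and HOXA10-AS on the other, so its reads may not be separate from theirs. The mature strand is given from RefSeq (chr7:27169528-27169549, minus strand, GRCh38.p14) because the other cluster microRNAs looked for were not analysed here, with the seed (bases 2 to 8) in capitals.
hsa-miR-196b-5p: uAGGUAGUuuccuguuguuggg

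In the anterior part of HOXA, HOXA3 and HOXA-AS2 were on in both RT-112 and CAL-29. HOXA3, needed for the thymus and parathyroid, had 4.86, 8.94 and 13.56 CPM in RT-112, 24.22, 19.08, 27.79, 20.18 and 8.38 CPM in CAL-29 and 0, 0.11 and 0.6 CPM in HT-1376. Antisense RNA HOXA-AS2 had 12.14, 13.4 and 14.59 CPM in RT-112, 20.46, 16.75, 22.93, 15.22 and 8.21 CPM in CAL-29 and at most 0.43 CPM in HT-1376. Both were above HT-1376 in every library of both lines. HOXA5 was the only HOXA gene off in all 3 lines, and the highest of its 17 values was 0.49 CPM.

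In the HOXB cluster HOXB7, a factor often raised in carcinomas, was the most abundant member, with 45.94, 58.3 and 72.58 CPM in RT-112, 50.96, 64.42, 75.69, 57.93 and 56.79 CPM in CAL-29 and 0.33, 0.74 and 4.55 CPM in HT-1376. RT-112 and CAL-29 overlapped and lay above HT-1376 by 5.22 ± 0.35 (adjusted p = 2.84e-08) and 5.38 ± 0.38 (adjusted p = 5.89e-08). The difference of RT-112 from CAL-29 was -0.16 ± 0.38 (adjusted p = 0.725). HOXB3, a hindbrain gene, had 17.9, 19.9 and 24.93 CPM in RT-112, 16.87, 13.33, 47.24, 14.89 and 13.83 CPM in CAL-29 and 0, 0.14 and 0.93 CPM in HT-1376. HOXB6 had 10.53, 12.5 and 15.2 CPM in RT-112, 11.44, 10.23, 35.3, 11.62 and 10.07 CPM in CAL-29 and 0, 0.065 and 0.49 CPM in HT-1376. HOXB4, which expands blood stem cells, had 8.21, 8.88 and 10.9 CPM in RT-112, 5.61, 3.98, 13.7, 4.31 and 4.78 CPM in CAL-29 and 0, 0.085 and 0.5 CPM in HT-1376. The CAL-29 WK library was the highest of its line for all of HOXB3, HOXB4 and HOXB6. HOXB13, the prostate and hindgut gene at the posterior end, had 2.46, 3.99 and 4.97 CPM in RT-112, 3.76, 2.32, 6.91, 3.76 and 6.52 CPM in CAL-29 and 0.06, 0.46 and 0.71 CPM in HT-1376.

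In the HOXC cluster HOXC13, a hair and nail gene, and its antisense RNA HOXC13-AS kept signal in HT-1376. HOXC13 had 10.03, 18.9 and 27.07 CPM in RT-112, 12.67, 25.44, 26.63, 33.76 and 72.37 CPM in CAL-29 and 0.78, 1.86 and 6.39 CPM in HT-1376. HOXC13-AS had 2.96, 6.93 and 12.24 CPM in RT-112, 4.04, 10.51, 16.69, 14.78 and 49.88 CPM in CAL-29 and 0.66, 2.01 and 4.67 CPM in HT-1376. The HOXC13-AS ranges of RT-112 and HT-1376 overlapped, and those of HOXC13 did not. HOXC6 had 5.65, 6.51 and 7.43 CPM in RT-112, 24.1, 23, 36.13, 25.58 and 17.88 CPM in CAL-29 and 0.13, 0.685 and 3.01 CPM in HT-1376. HOXC9, a thoracic gene, had 4.43, 5.41 and 6.69 CPM in RT-112, 20.69, 22.34, 22.38, 21 and 14.45 CPM in CAL-29 and 0, 0.12 and 0.44 CPM in HT-1376. HOXC10, a hindlimb gene, had 0.78, 1.65 and 2.05 CPM in RT-112, 13.4, 12.77, 8.29, 8.84 and 8.55 CPM in CAL-29 and at most 0.13 CPM in HT-1376. The order was CAL-29, RT-112, HT-1376 for all 3 of HOXC6, HOXC9 and HOXC10, with no overlap between neighbours. The antisense RNA HOXC-AS1 had 1.96, 2.23 and 3.5 CPM in RT-112, 0.84, 1.27, 2.1, 0.98 and 1.18 CPM in CAL-29 and at most 0.22 CPM in HT-1376. Antisense RNA HOXC-AS3 had 0.27, 0.485 and 0.78 CPM in RT-112, 1.12, 3.59, 1.05, 1.85 and 2.36 CPM in CAL-29 and at most 0.05 CPM in HT-1376. RT-112 was thus higher than CAL-29 in mean for HOXC-AS1 and lower for HOXC-AS3.

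The HOXD cluster held the member with the largest excess of RT-112 over CAL-29 among those tested, HOXD9, and the member on in all 3 lines, HOXD11. HOXD9, a posterior gene beside HOXD8, had 14.48, 16.5 and 18.6 CPM in RT-112, 0 CPM in every HT-1376 library and 0, 0.06, 0.06, 0 and 0 CPM in CAL-29. Its mean in RT-112 was at least 77.1-fold higher than 3 reads per library allow in HT-1376, and the log2 difference from CAL-29 was 4.99 ± 0.20 (adjusted p = 2.31e-10). The neighbouring gene HOXD8 had 4.64, 6.14 and 6.41 CPM in RT-112, 8.35, 5.36, 7.18, 5.95 and 3.77 CPM in CAL-29 and 0 CPM in every HT-1376 library, and RT-112 and CAL-29 overlapped. HOXD11, a forearm and kidney gene, had 6.31, 7.4 and 13.83 CPM in RT-112, 72.71, 56.34, 104.31, 98.12 and 92.5 CPM in CAL-29 and 1.02, 1.44 and 3.29 CPM in HT-1376. No other member reached 1 CPM in all HT-1376 libraries, and the 3 lines did not overlap (RT-112 above HT-1376 by 2.03 ± 0.23, adjusted p = 4.79e-06, and CAL-29 above HT-1376 by 5.28 ± 0.25, adjusted p = 8.66e-10). Antisense RNA HOXD-AS2 had 5.81, 6.77 and 11.25 CPM in RT-112, 92.66, 69.12, 34.92, 53.18 and 23.11 CPM in CAL-29 and 0.06, 0.41 and 1.26 CPM in HT-1376. HOXD4, an anterior gene, had 7.88, 10.1 and 11.63 CPM in RT-112, 12.05, 17.64, 18.95, 6.49 and 21.76 CPM in CAL-29 and 0, 0.1 and 0.71 CPM in HT-1376. HOXD13, the digit and urogenital gene at the posterior end, reached at most 0.28 CPM in any library.

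The other members are given by their ranges. HOXA7, the next gene in front of HOXA9, had 13.05 to 19.67 CPM in CAL-29 and at most 0.16 CPM in the other lines. HOXC4 had 7.05 to 9.57 CPM in RT-112, 3.59 to 16.35 CPM in CAL-29 and at most 0.44 CPM in HT-1376. HOXC11, HOXD1, HOXB2 and HOXB9 peaked in CAL-29, at 3.25 to 7.08, 4.39 to 7.06, 1.29 to 6.45 and 0.96 to 7.62 CPM. A few low members leaned towards RT-112 instead. HOXA4 had 2.94 to 3.77 CPM there and 0.45 to 1.46 CPM in CAL-29, HOXA6 1.62 to 3.37 CPM and 0.62 to 1.74 CPM, and HOXB8 0.8 to 3.07 CPM and 0.17 to 1.16 CPM. HOXC12 was at 0 CPM in every library of RT-112 and HT-1376 and at 0.67 to 2.98 CPM in CAL-29, at least 9.10-fold and 7.74-fold higher in mean than 3 reads allow there. Together with HOXA5, HOXA-AS3, HOXB-AS1, HOXC-AS1, HOXC-AS3, HOXD3, HOXD10 and HOXD13, the genes HOXA4, HOXA6, HOXB8 and HOXC12 make up the 12 members below the filter, for which no test was run.

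Over the 30 members tested, 29 were higher in CAL-29 than in HT-1376 and 0 lower, beside 43.4% of all genes higher and 17.6% lower. HOXD9 was the exception (0.08 ± 0.20, adjusted p = 0.727). RT-112 was higher than HT-1376 in 23 members and lower in 0, beside 19.2% and 42.7% of all genes. The median log2 difference of the members tested was 2.39 for RT-112 and 4.43 for CAL-29, beside -0.43 and 0.47 over all genes. Against CAL-29, RT-112 was higher in 1 member (HOXD9) and lower in 18, beside 15.3% and 56.2% of all genes, with a median of -1.67 in the members and -0.84 over all genes. The share of members lower in RT-112 was thus near that of all genes, and this count says little about the HOX genes. It also turned on the scaling, since under TMM factors 5 members were higher in RT-112 (HOXB3, HOXB4, HOXC4, HOXD8 and HOXD9) and 16 lower, while the comparisons with HT-1376 kept their 23 and 29 calls. The calls over all genes moved with it, from 2498 higher and 5557 lower to 3606 and 4080 for RT-112 against HT-1376, from 5646 and 2298 to 4016 and 3412 for CAL-29 against HT-1376, and from 1994 and 7320 to 4008 and 5048 for RT-112 against CAL-29. TMM moved the median of all genes to -0.11, 0.11 and -0.18 for the 3 comparisons.

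**Figure D4:**
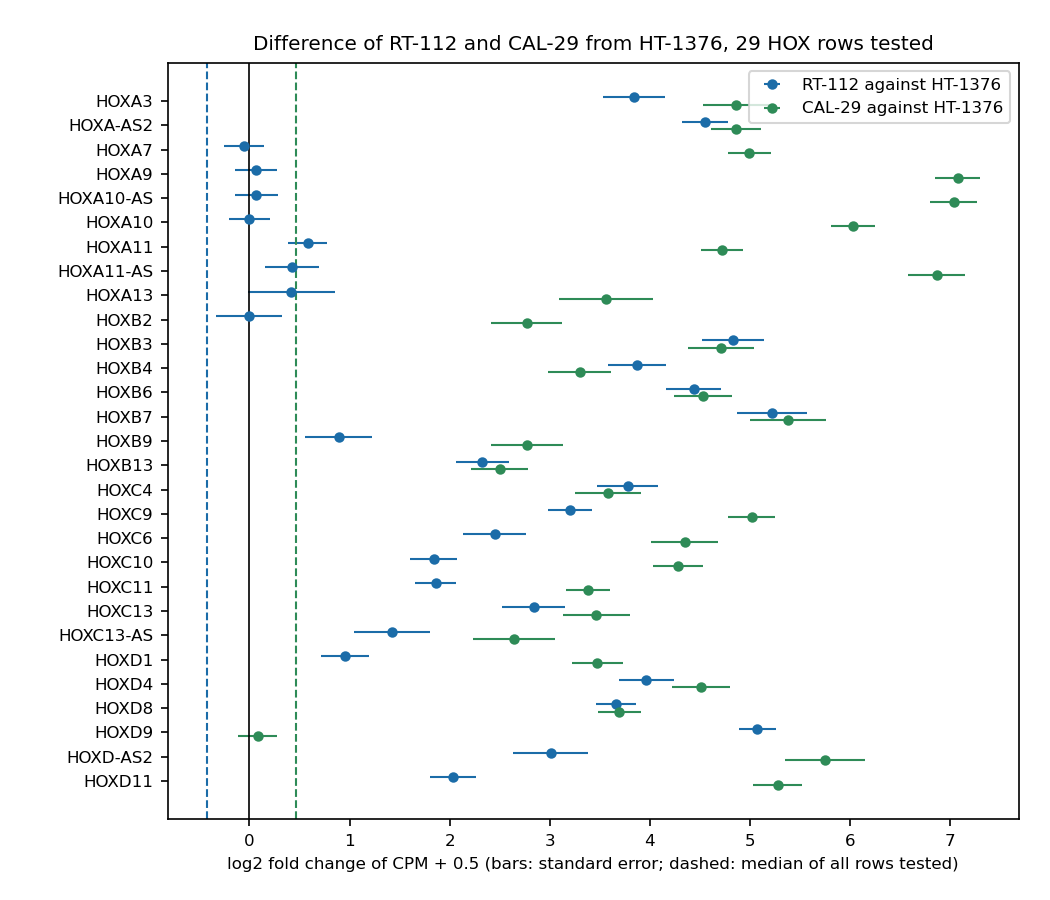
Log2 difference (horizontal axis, ± SE, limma on log2(CPM + 0.5), 17 libraries) of RT-112 (blue) and CAL-29 (green) from HT-1376 for 29 members past the filter (vertical axis), with dashed lines at the median of all genes tested, -0.43 and 0.47. The called members lie to the right of 0 in both lines, the posterior HOXA members HOXA9 and HOXA10 in CAL-29 alone and HOXD9 in RT-112 alone.

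Most genes that surround the clusters were on in HT-1376. Of the genes beside each cluster with a row, 3 of 5 next to HOXA, 3 of 4 next to HOXB, 4 of 4 next to HOXC and 4 of 4 next to HOXD were on in HT-1376, the same counts as in RT-112. Their summed level in HT-1376 was 31.66 to 84.1 CPM beside HOXA, 187.7 to 243.61 beside HOXB, 120.9 to 180.4 beside HOXC and 395.26 to 532.84 beside HOXD. Counts in CAL-29 were 5 of 5, 3 of 4, 4 of 4 and 4 of 4, and JAZF1 beside HOXA and PRAC2 beside HOXB were off in HT-1376 and RT-112. All 4 genes tested beside HOXA, 2 of 3 beside HOXB, 3 of 4 beside HOXC and 2 of 4 beside HOXD were higher in CAL-29 than in HT-1376, and none of the 4 beside HOXA was higher in RT-112 than in HT-1376. Over all genes 43.4% were higher in CAL-29 than in HT-1376 and 19.2% in RT-112. Within the clusters the RNA HOTAIRM1, from the anterior end of HOXA, was on in all 3 lines, with 41.28 to 73.95 CPM in RT-112, 36.21 to 60.44 in CAL-29 and 1.21 to 11.23 in HT-1376. HOTTIP, transcribed from the posterior tip of HOXA, was on in CAL-29 alone, and HOTAIR, an RNA of the HOXC cluster, was off in every line.

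Most known partners and regulators of HOX proteins were on in all lines. Of the homeodomain cofactors such as MEIS2, which bind DNA together with HOX proteins, 7 of 8 with a row were on in each line. 3 were higher and 2 lower in RT-112 than in HT-1376, 4 higher and 0 lower in CAL-29 than in HT-1376, and 1 higher and 5 lower in RT-112 than in CAL-29. Of the Polycomb and trithorax genes and CDX factors, 20 of 23 were on in RT-112 and 22 in each of the other lines. RT-112 was higher than HT-1376 in 7 of these and lower in 8, and CAL-29 was higher in 12 and lower in 1. Against CAL-29, RT-112 was higher in 4 and lower in 15. Over all genes the shares higher and lower were 19.2% and 42.7%, 43.4% and 17.6%, and 15.3% and 56.2% for these 3 comparisons. The list counts were taken without TMM scaling, which moved the calls over all genes. CDX2, a hindgut activator of HOX genes, was the regulator with the sharpest difference, with 4.74 to 10.74 CPM in RT-112, at most 0.19 CPM in HT-1376 and at most 0.06 CPM in CAL-29. Of 11 retinoic acid genes 9 were on in CAL-29, 7 in RT-112 and 5 in HT-1376. ALDH1A3, which makes retinoic acid, had 450.05 to 699.39 CPM in RT-112, 359.55 to 714.64 CPM in CAL-29 and 0.23 to 1.13 CPM in HT-1376 (8.81 ± 0.20 and 8.92 ± 0.22 above HT-1376, adjusted p = 1.27e-12 and 3.74e-12). The retinoic acid receptor RARB was on in CAL-29 alone, at 17.94, 3.26, 7.46, 10.96 and 4.22 CPM, and reached at most 0.06 CPM in the other lines. Whether any of these genes bears on the HOX states was not tested.

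The second question was whether the HOX states held over the transduced variants. They did so most closely in RT-112, where the SD of log2(CPM + 0.5) over the 6 variants had a median of 0.210 over the 21 members that were on, beside 0.264 over all genes that were on. It ran from 0.0966 for HOXA-AS2 to 0.654 for HOXC13-AS, and 8 of the 21 members lay above the median of all genes. In CAL-29 the median was 0.555 over 29 members and 5 libraries, beside 0.475 over all genes that were on, and it ran from 0.185 for HOXA11 to 1.56 for HOXA13. In CAL-29 16 of the 29 members lay above the median of all genes, and no line was tested for a difference from other genes. Among genes in the same range of mean CPM the median SD was 0.279 in RT-112 and 0.504 in CAL-29.

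Each variant was compared with KK with the cell lines taken as replicates, which is the comparison of the study. All 18 libraries were used, the one labelled CAL-29 KC among them. With 3 libraries on each side limma called 0 of the 30 members in each of the 5 comparisons, beside 0% of all genes. At an unadjusted p under 0.05 it gave 0 members in any of them, and 7 genes for KA, 11 for KC, 38 for WK, 37 for WA and 84 for WC. The spread between the lines is part of the error of this fit, and the SE for HOXA10-AS was 2.73 on the log2 scale. DESeq2 called 0 members, and so did limma with the line as a block. With the block edgeR called 1 member in KC, HOXA10-AS (lower), beside 5 of all genes, all of them lower. Without the library labelled CAL-29 KC it called 0 members.

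WWOX, AP-2α and AP-2γ were then fitted as separate effects within each line over 17 libraries. In RT-112 none of them gave a call among the 30 members (0% of all genes for WWOX, 0.00768% for AP-2α and 0.0384% for AP-2γ). At an unadjusted p under 0.05 limma gave 1 member for WWOX, 0 for AP-2α and 1 for AP-2γ. Over all 13022 genes it gave 1021, 223 and 218. The library labelled RT-112 WA was fitted by its label. AP-2α gave 0 calls in HT-1376 and CAL-29 (0% of all genes in both), and AP-2γ gave 0 in HT-1376 (0.0384%). Calls were left for WWOX in HT-1376 (1 member, 9.75% of all genes), for WWOX in CAL-29 (1 member, 0.73%) and for AP-2γ in CAL-29 (1 member, 2.45%). With 30 members tested, 1 call is too few to set these shares apart from those of all genes. In HT-1376 limma gave an unadjusted p under 0.05 for 3 members with WWOX, 0 with AP-2α and 5 with AP-2γ. Over all genes it gave 3630, 385 and 676. In CAL-29 it gave 9 members with WWOX and 4 with AP-2α, beside 1671 and 788 of all genes. AP-2γ in CAL-29 had WC as its only library and is left out here. Whether the members differ from all genes in these counts was not tested.

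HOXA13, a posterior gene of the hindgut, limb and urogenital tract, was the member called in CAL-29. It had 2.52 CPM in KK and 1.05 CPM in KA, and 26.52 CPM in WK, 7.69 CPM in WA and 5.68 CPM in WC, so that every library with WWOX lay above both without it. The WWOX effect was 2.78 ± 0.29 on the log2 scale (adjusted p = 0.00711) and differed between the lines (adjusted p = 0.0166, beside 2.9% of all genes called). HOXA13 was at 0 CPM in HT-1376 and at 0.06 to 0.32 CPM in RT-112, so that a decrease could hardly be seen there. The fit pools the spread over the lines, so the SE and p-values of HOXA13 rest largely on these low values. They are not a measure of the spread within CAL-29 alone. What lies behind the difference between the lines was not tested. The call for WWOX held without each of the 17 libraries in turn (adjusted p of 0.00213 to 0.0363), but was not made at a pseudocount of 0.05 CPM (adjusted p = 0.0636) or by edgeR (adjusted p = 0.112). The difference between the lines was not called without RT-112 KA, KC, WA or WC or without HT-1376 KK or WK, nor at that pseudocount, by edgeR or with all 18 libraries. With AP-2γ in CAL-29 the HOXA13 effect was -1.94 ± 0.39 (adjusted p = 0.0422), which rested on WC as the only AP-2γ library of the line and was lost in 12 of 16 fits that left out another library, those without any 1 of the RT-112 or HT-1376 libraries. HOTTIP overlaps HOXA13 on the opposite strand and may share reads with it. HOTTIP had 1.96 CPM in KK, 1.66 in KA, 17.79 in WK, 4.75 in WA and 7.14 in WC, again with every WWOX library above both others (2.09 ± 0.36, adjusted p = 0.0446). Its difference between the lines did not pass (adjusted p = 0.0545). HOTTIP was at most 0.16 CPM in RT-112 and 0.07 CPM in HT-1376, so its SE has the same limit. WWOX itself was highest in the same WK library, at 154.92 CPM. In WA and WC it was at 69.27 and 62.36 CPM, against 63.68 CPM in KK and 51.31 CPM in KA. The HOXA13 call was also made without the WK library.

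HOXC13 was called for WWOX in HT-1376. It had 1.18 CPM in KK, 1.31 in KA and 0.78 in KC, and 2.41 in WK, 6.39 in WA and 3.45 in WC, with no overlap and an effect of 1.45 ± 0.28 (adjusted p = 0.0177). The call was lost without HT-1376 KA, KC, WA or WC (adjusted p of 0.0749 to 0.105), and the values of KK, KA and KC stand for 18, 23 and 11 reads. In RT-112 HOXC13 had 10.03 CPM with both blanks (KK), 20.41 with AP-2α (KA), 26.51 with AP-2γ (KC), 13.78 with WWOX (WK), 17.38 with WWOX and AP-2α (WA) and 27.07 with WWOX and AP-2γ (WC), where the library labelled RT-112 WA goes by its label although TFAP2C was raised in it (179.87 CPM) and TFAP2A was low (25.32 CPM). In CAL-29 it had 12.67 CPM in KK, 25.44 in KA, 26.63 in WK, 33.76 in WA and 72.37 in WC. KK was the lowest library in both of these lines. In pairs of libraries that differed in 1 vector by their labels, HOXC13 was higher with WWOX in 7 of 8, with AP-2α in 6 of 6 and with AP-2γ in 4 of 5, and 1 of the AP-2α pairs sets the library labelled RT-112 WA against WK. Some other members were as uniform. HOXB6 was higher with WWOX in 8 of 8 pairs and HOXA4 and HOXA6 in 0 of 8. HOXA6 and HOXD11 were higher with AP-2α in 0 of 6. HOXA10, HOXD1 and HOXD8 also gave 0 of 6 with AP-2α, and HOXA10 and HOXA10-AS 0 of 5 with AP-2γ. These last counts say less, since a pair at 0 CPM in both counts as not higher. HOXA10 was at 0 CPM in every RT-112 and HT-1376 library, and HOXD8 and HOXA10-AS in every HT-1376 library. HOXD1 was at 0 CPM in HT-1376 KK and KA. The effects of the 3 vectors on HOXC13 over 17 libraries were 0.83 ± 0.25 (adjusted p = 0.290), 0.66 ± 0.30 and 0.81 ± 0.32 (adjusted p = 1.00 for both), and no member passed in this fit, beside 0% of all genes. HOXC13-AS was higher with AP-2γ in 5 of 5 pairs (1.26 ± 0.39, adjusted p = 0.999), with WWOX in 6 of 8 and with AP-2α in 4 of 6. HOXC13 and HOXC13-AS lie on opposite strands with overlapping ends and may share reads.

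**Figure D5:**
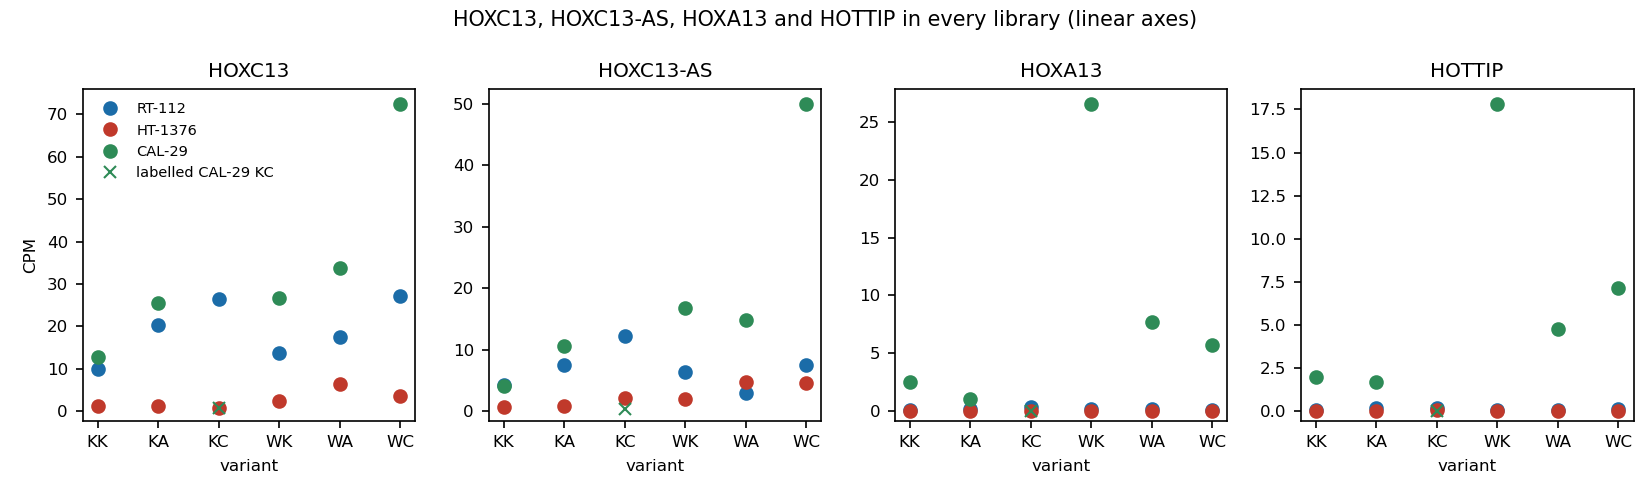
CPM (vertical axes, linear) of HOXC13, HOXC13-AS, HOXA13 and HOTTIP by variant (horizontal axis, KK to WC), with 1 point per library, a colour per line and a cross for the library labelled CAL-29 KC. The 3 CAL-29 libraries with WWOX lie above KK and KA for HOXA13, and the 3 HT-1376 libraries with WWOX (2.41 to 6.39 CPM) lie above those without for HOXC13.

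The traces of HOX signal in HT-1376 were uneven over its libraries. Of the 42 members, the number over 3 reads was 8 for KK, 11 for KA, 17 for KC, 8 for WK, 5 for WA and 22 for WC. WC was also highest for HOXB7 (4.55 CPM), HOXC6 (3.01 CPM) and HOXD11 (3.29 CPM). 153 other genes that were below 0.5 CPM in HT-1376 KK and had at least 5 CPM in KK of both other lines had a median of 0.13 CPM (KK), 0.34 (KA), 0.43 (KC), 0.69 (WK), 0.64 (WA) and 1.15 (WC). WC was highest in both, the order of the other libraries differed, and KK was low by the choice of these genes. Without WC 35 members were off in HT-1376, and without KC and WC 36 were off. HOXA4 ran the other way, at 1.32, 1.65 and 1.49 CPM in KK, KA and KC and 0.4, 0.13 and 0.77 CPM in WK, WA and WC.

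The library labelled CAL-29 KC had a summed HOX level of 10.2 CPM, with 4.77 in HOXA, 0.95 in HOXB, 1.91 in HOXC and 2.57 in HOXD. The total lay within the range of HT-1376 and below every other CAL-29 library. Of the 42 members, 34 were nearest to the mean of HT-1376, 7 to RT-112 and 1 to CAL-29, beside 53.2% of all genes nearest to HT-1376. HOXA9, HOXA10, HOXA11, HOXA11-AS and HOXA13 were at 0 CPM in it and HOXD11 was at 2.09 CPM. Counted with the other CAL-29 libraries, it would leave 2 members on in that line.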

How the data were processed

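Capped 5′ ends were measured by CAGE-seq in 18 libraries. Per the study's methods, the authors sequenced single-end reads of 75 nt, mapped them to hg38 with BWA and then HISAT2 2.0.5, grouped the tags with a modified Paraclu (RECLU), dropped irreproducible tag clusters, and deposited 1 CPM value per gene and library. The annotation, the assignment of clusters to genes, the use of strand and the total behind the CPM are not given in the sources used here, so overlapping genes (39 of the 42 members) may share or lose reads.

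Identifiers were joined to symbols of GENCODE 44 (16553 of 16575 genes). The members and all gene lists were chosen with earlier results of these data known. The rule for members named with values took up to 5 per cluster by mean CPM in the line where it was highest, those called within a line, and antisense RNAs on in a line. Single values of 1 member and of 1 listed cofactor are not reported here. Reads were recovered from the CPM steps (99.97% to 99.99% of values whole within 0.0051 CPM), and libraries of a line differed by a chi-square of at least 20.4 per degree of freedom, so no library was counted as a copy. With 13357102 to 17958572 reads on genes, a count of 0 allows up to 3 reads. Genes with at least 5 CPM in 1 library (13022) were fitted with limma 3.58.1 in R 4.3.3 (trended empirical Bayes, log2(CPM + 0.5), Benjamini-Hochberg, adjusted p under 0.05), between lines and within lines without the library labelled CAL-29 KC, and between variants over all 18 libraries. Fold-changes on this scale understate those of low genes. Each variant of a line is 1 library, so p-values measure the spread between these libraries, which may be technical in part. The same line pairs libraries across variants by design, and the line was tried as a block. Deviations from the variant means correlated at 0.742 to 0.915 for RT-112 and at 0.588 to 0.896 for HT-1376. For CAL-29 they correlated at 0.036 to 0.881, with a lowest of 0.663 without the library labelled CAL-29 KC. Alternatives were other pseudocounts (0.05 and 2 CPM), filters, TMM scaling, edgeR 4.0.16, DESeq2 1.42.0 and voom on recovered reads, and leaving out each library. Fits were tested on simulated data.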

Additional observations from a re-analysis of the deposited data

Results flagged for a closer look

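In 12 of 59 groups of libraries the highest or lowest value stood apart by Dixon's criterion at 95%. Among independent groups about 1 in 20 would by chance. These groups are not independent, since the HOXB sum holds HOXB3, HOXB4 and HOXB6 and several flags fell on CAL-29 WK. The count therefore cannot be read as an excess. In CAL-29, WK was highest for the HOXB sum (187.29 CPM, next 107.12 CPM), HOXB3 (47.24 CPM, next 16.87 CPM), HOXB4 (13.7 CPM, next 5.61 CPM), HOXB6 (35.3 CPM, next 11.62 CPM), HOXA10 (50.77 CPM, next 30.66 CPM) and HOXA13 (26.52 CPM, next 7.69 CPM). CAL-29 WC was highest for HOXC13-AS (49.88 CPM, next 16.69 CPM) and lowest for HOXC9 (14.45 CPM, next 20.69 CPM). In HT-1376, WC was highest for HOXC6 (3.01 CPM, next 0.92 CPM) and HOXD11 (3.29 CPM, next 1.77 CPM). In RT-112, WK was highest for HOXD11 (13.83 CPM, next 8.37 CPM) and WC for HOXC-AS1 (3.5 CPM, next 2.35 CPM).

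The WWOX effect on HOXA13 differed between the lines (limma, adjusted p = 0.0166), with 2.78 ± 0.29 in CAL-29, -0.08 ± 0.24 in RT-112 and 0 ± 0.24 in HT-1376, where the gene was at 0 CPM in every library. HOXA13 passed the filter through CAL-29 alone and RT-112 held 1 to 6 reads of it per library. A decrease could thus hardly be seen in the other lines, and the cause of the difference was not tested. The SE and the adjusted p pool the spread over the lines, so they rest largely on such low values. The call was lost at a pseudocount of 0.05 CPM, by edgeR and with all 18 libraries.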

How the results depend on the processing

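Against HT-1376 the counts of members called kept within 1.5 times of 23 and 29 under every alternative run, with 22 to 23 and 29 to 29 without 1 library each, and RT-112 against CAL-29 gave 18 to 20. Without a filter RT-112 against CAL-29 gave 29 members, since more were tested. HOXA3 and HOXC13-AS lost their calls in this comparison under TMM scaling (adjusted p = 0.341 and 0.262) and by edgeR (0.496 and 0.438), voom (0.411 and 0.171) and DESeq2 (0.660 and 0.564). Calls within a line moved most. WWOX in HT-1376 gave 5 members at a pseudocount of 0.05 CPM, 3 without a filter, 0 with all 18 libraries and 0 to 3 without 1 library each (0 without HT-1376 KA, KC, WA or WC, 3 without CAL-29 KK, KA, WK or WA). WWOX in CAL-29 gave 0 at 0.05 CPM, 0 by edgeR and 1 to 5 without 1 library each (5 without CAL-29 KA or WA). AP-2γ in CAL-29 gave 0 at 0.05 CPM, under TMM and by edgeR, 2 at 2 CPM, 2 without a filter, 6 with all 18 libraries and 0 to 7 without 1 library each (7 without CAL-29 WK), and could not be fitted without WC. AP-2α in CAL-29 gave 0 to 1 (1, HOXA13, without KK or KA). The difference of the WWOX effect between lines gave 0 at 0.05 CPM, by edgeR and with all 18 libraries, and 0 to 2 without 1 library each (2 without CAL-29 KK, KA, WK or WA). AP-2α and WWOX in RT-112, and AP-2α and AP-2γ in HT-1376, gave 0 to 0, as did AP-2γ in RT-112, the fits over the lines and each variant against KK without 1 line. Over all genes, WWOX in HT-1376 gave 1210 calls at 0.05 CPM, 1594 without a filter and 141 with all 18 libraries. The main fit gave 1269. WWOX in CAL-29 gave 21 at 0.05 CPM and 2 by edgeR, beside 95 in the main fit. The difference between lines gave 256 at 0.05 CPM, 183 by edgeR and 7 with all 18 libraries, beside 377 in the main fit. The causes were not tested.

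With the line as a block, limma called 0 members in each of the 5 variants against KK. With the block edgeR called 1 in KC, beside 5 of all genes, and this alternative was chosen after seeing the data.

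At 5 CPM, 13 members were on and 25 off in RT-112, 0 on in HT-1376, and 18 on and 13 off in CAL-29. In HT-1376 3 were on at 0.5 CPM and 2 without KC and WC, and with the library labelled CAL-29 KC counted 2 were on in CAL-29. The median SD was 0.182 to 0.217 in RT-112 and 0.438 to 0.574 in CAL-29 under other pseudocounts and TMM. With 1 library per line and variant, no variant could be tested within a line without pooling the spread.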

Other observations

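Further genes of the lists differed between the lines. CYP26B1, which breaks down retinoic acid, had 0.22 to 1.32 CPM in RT-112, 2.98 to 7.68 CPM in HT-1376 and 2.31 to 17.66 CPM in CAL-29. RT-112 was lower than HT-1376 (-2.42 ± 0.37, limma, adjusted p = 7.41e-05) and CAL-29 (-3.02 ± 0.40, adjusted p = 1.62e-05), and CAL-29 overlapped HT-1376 (0.59 ± 0.40, adjusted p = 0.210). CYP26A1, of the same family, was at most 0.16 CPM in RT-112, 0 in HT-1376 and 0.17 to 19.13 CPM in CAL-29, where KA was highest. The HOX cofactor gene MEIS2 had 4.85 to 9.71 CPM in RT-112, 1.49 to 2.7 CPM in HT-1376 and 11.41 to 16.36 CPM in CAL-29. It was higher than in HT-1376 by 1.73 ± 0.21 in RT-112 (limma, adjusted p = 9.06e-06) and 2.48 ± 0.23 in CAL-29 (adjusted p = 7.99e-07). Of the fibroblast markers 3 were tested, and 1 was higher (LUM) and 1 lower (COL1A2) in RT-112 than in HT-1376. ALDH1A3 was at 0.48 CPM in the library labelled CAL-29 KC, and MIR196B and HOTTIP were at 0 CPM there.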
